A study of Arabidopsis thaliana with 18 samples.

Results

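NAC transcription factors are a plant family named after the founding genes NAM, ATAF and CUC. Here they are the 104 rows of the deposited table whose gene name begins with NAC or ANAC and a number, or whose annotation contains "NAC domain" or "NAC transcription factor". Of these, 67 reached at least 1 TPM (a transcript level per transcript length within a fixed library total) in at least 3 of 18 libraries and are the members described. The table holds 33082 rows, of which 21727 passed the same filter. The choice used names and levels but no contrast between groups.

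Whole Arabidopsis thaliana seedlings of accession Col-0, 9 days old and grown on vertical plates, were the source of RNA. They were wild type (WT) or bon123, written bon123t in the labels, a mutant in the copine genes BON1, BON2 and BON3, whose products bind membranes in a calcium-dependent way. Each genotype received mock treatment, 100 µM abscisic acid (ABA, a stress hormone) or 300 mM mannitol (an osmotic agent) on 1/2 MS medium, which gives 6 groups of 3 libraries each. Sample labels give a treatment time of 12 h and the series text 24 h. The labels name neither the alleles nor the number of lines, and leave the letter t unexplained.

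NAC proteins bind DNA through a conserved N-terminal domain and activate or repress their targets through a variable C-terminal region. The ATAF and RD26 group is induced by dehydration and ABA, others such as ORE1 and NAP drive leaf senescence, the VND genes specify water-conducting xylem vessels, the CUC genes draw boundaries between organs, and the NTL proteins wait in membranes until they are released to the nucleus. Several developmental members and ORE1 are cleaved through the microRNA miR164.

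The miR164 target sites are shown because they link members that belong to different roles. The mature miRNA comes from the MIR164a locus (AT2G47585) at chr2:19520770-19520790, plus strand, of TAIR10.1 (RefSeq), written 5′ to 3′ in DNA letters with the seed, bases 2 to 8, in capitals.
ath-miR164a: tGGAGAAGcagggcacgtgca
A search of the spliced transcripts of all 104 rows with at most 4 mismatches found a site in 7 of them, each in the coding sequence. In the sites below, written 5′ to 3′ on the strand of the transcript, capitals mark bases that do not form a Watson-Crick pair with miR164a.
NAC021, chr1:20947142-20947162, minus strand: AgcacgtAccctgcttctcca
AT3G12977, chr3:4145631-4145651, plus strand: AgcaTgtAccctgcttctcca
NAC079, chr5:2436958-2436978, plus strand: tTTacgtgccctgcttctcca
NAC92, chr5:15858797-15858817, minus strand: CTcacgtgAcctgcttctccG
NAC100, chr5:24701687-24701707, minus strand: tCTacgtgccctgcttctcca
Opposite the seed, all bases of these 5 sites were paired. The other 2 genes with a site, NAC054 (CUC1) and NAC098 (CUC2), did not pass the filter on low values. The MIR164a locus was listed at 0 TPM in all 18 libraries, and the level of mature miR164 is not measured in this table.

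Promoters of NAC019, NAC032 and RD26 show where the core ACGTG of the ABA-responsive element lies. They were chosen because they hold it: 5 dehydration members rose with both ABA and mannitol in WT, and ATAF1 and ANAC102, the other two, have no match in this window. Each window is the 250 bases before the gene start in TAIR10.1 (RefSeq), 5′ to 3′ on the strand of the gene, and capitals mark ACGTG on either strand. A CACGTG is read as ACGTG on both strands and counts as a pair of overlapping matches.
NAC019, chr1:19698483-19698732, minus strand: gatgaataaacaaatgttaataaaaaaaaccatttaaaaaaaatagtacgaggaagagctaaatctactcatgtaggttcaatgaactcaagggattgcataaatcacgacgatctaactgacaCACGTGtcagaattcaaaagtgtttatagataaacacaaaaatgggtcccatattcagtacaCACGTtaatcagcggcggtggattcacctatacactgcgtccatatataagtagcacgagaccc
NAC032, chr1:29099589-29099838, plus strand: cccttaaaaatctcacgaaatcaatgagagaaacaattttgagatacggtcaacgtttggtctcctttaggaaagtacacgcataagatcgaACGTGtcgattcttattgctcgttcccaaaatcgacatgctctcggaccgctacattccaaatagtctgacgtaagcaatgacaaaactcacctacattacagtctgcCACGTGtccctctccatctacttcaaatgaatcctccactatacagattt
RD26, chr4:13709171-13709420, minus strand: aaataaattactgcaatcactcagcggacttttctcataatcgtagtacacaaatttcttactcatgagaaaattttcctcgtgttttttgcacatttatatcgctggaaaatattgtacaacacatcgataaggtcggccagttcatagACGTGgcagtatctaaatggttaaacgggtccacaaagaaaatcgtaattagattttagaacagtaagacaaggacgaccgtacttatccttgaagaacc
The matches begin at -126, -125 and -64 in NAC019, counted from the gene start, at -158, -50 and -49 in NAC032, and at -100 in RD26. Of the 67 members, 24 (35.8%) held ACGTG in this window, against 22.9% of the 27444 promoters of the same length in the annotation. By role these were 9 of 12 membrane-tethered members, 5 of 11 senescence members, 3 of 7 dehydration members and 0 of 8 xylem and wall members. The rest were 1 of 6 developmental members, 1 of 3 members of other stress responses and 5 of 20 members with no role assigned. The windows with the motif were 11 of the 24 members that rose in WT after ABA, 1 of the 10 that fell and 12 of the 33 that were not called. A match describes letters in a window and not a bound site.

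Several properties of the libraries bear on every comparison between genotypes. The 8 markers of green tissue, a list added after values had been seen and including the Rubisco small subunit gene RBCS1A and the antenna gene CAB2, were all lower in bon123 mock, and their summed level was 41036 to 44384 TPM in WT mock but only 1225.5 to 1703.4 in untreated bon123, 279.92 to 345.22 with ABA and 1057.3 to 1152.7 with mannitol. The root marker PYK10, a beta-glucosidase gene, had 1852.16 to 2562.62 TPM in WT mock and 15043.98 to 16410.93 in untreated bon123, whereas SCR, SHR, CASP1, EXPA7, COBL9 and NRT2:1, the other root markers tested, included 2 lower and 0 higher genes there and IRT1 was not tested. With ABA, PYK10 was at 1422.15 to 1944.94 TPM in bon123 and SCR, SHR and CASP1 also fell, while EXPA7 rose. With mannitol PYK10 was at 11178.91 to 15175.68 TPM in bon123, EXPA7, COBL9 and NRT2:1 rose and SCR fell. The seed storage markers CRA1 and SESA1 summed to 0 to 1.71 TPM in WT mock, where SESA1 was listed at 0 in each library. In bon123 they summed to 0.66 to 41.24 TPM without treatment, 6.25 to 62.45 with ABA and 0.75 to 4.48 with mannitol. Untreated bon123 thus overlapped both treated mutant groups, and WT mock overlapped untreated and mannitol-treated bon123. In whole seedlings, fewer cells of a type and less RNA per cell cannot be told apart, and the part of these markers in the results was not tested. The targeted genes were checked first: BON1 had at most 1.66 TPM in bon123 and at least 10.13 in WT, BON2 at most 16.18 and at least 21.32, but BON3, at a low level throughout, had 0.22 to 0.75 TPM in bon123 and 0 to 0.17 in WT, so that it was not lower in the mutant. Library bon123 ABA replicate 3 stood apart, since its correlation of log2 levels across genes with replicate 1, 0.958, was the lowest within any group, and ribosomal RNA took 5.90% to 10.1% of the bon123 mannitol libraries and 6.10% of WT mock replicate 1, against 0.475% to 2.21% of the others.

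The NAC genes as a group were present at a low level in untreated WT and at a several times higher level in bon123. Their summed level averaged 885.5 TPM in WT mock, 1962.5 in WT ABA and 1548.1 in WT mannitol, and 3846.4 in bon123 mock, 7951.0 in bon123 ABA and 2442.1 in bon123 mannitol. The most abundant members of WT mock were NAC083 (AT5G13180, VNI2, a repressor of vessel formation and senescence) at 90.6 ± 7.6 TPM (SD, n = 3 here and throughout), ANAC102 (AT5G63790, a relative of ATAF1) at 75.4 ± 11.8 and NAC082 (AT5G09330) at 63.0 ± 6.4. Under ABA, RD26 (AT4G27410) led in both genotypes, with 379.1 ± 19.0 TPM in WT and 973.2 ± 102.3 in bon123. The mean was highest in bon123 ABA for 29 members and in bon123 mock for 19, and it was lowest in WT mock for 28. The 8 most abundant members made up 47.2% of the NAC total in WT mock and 65.0% in bon123 ABA.

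**Figure D1:**
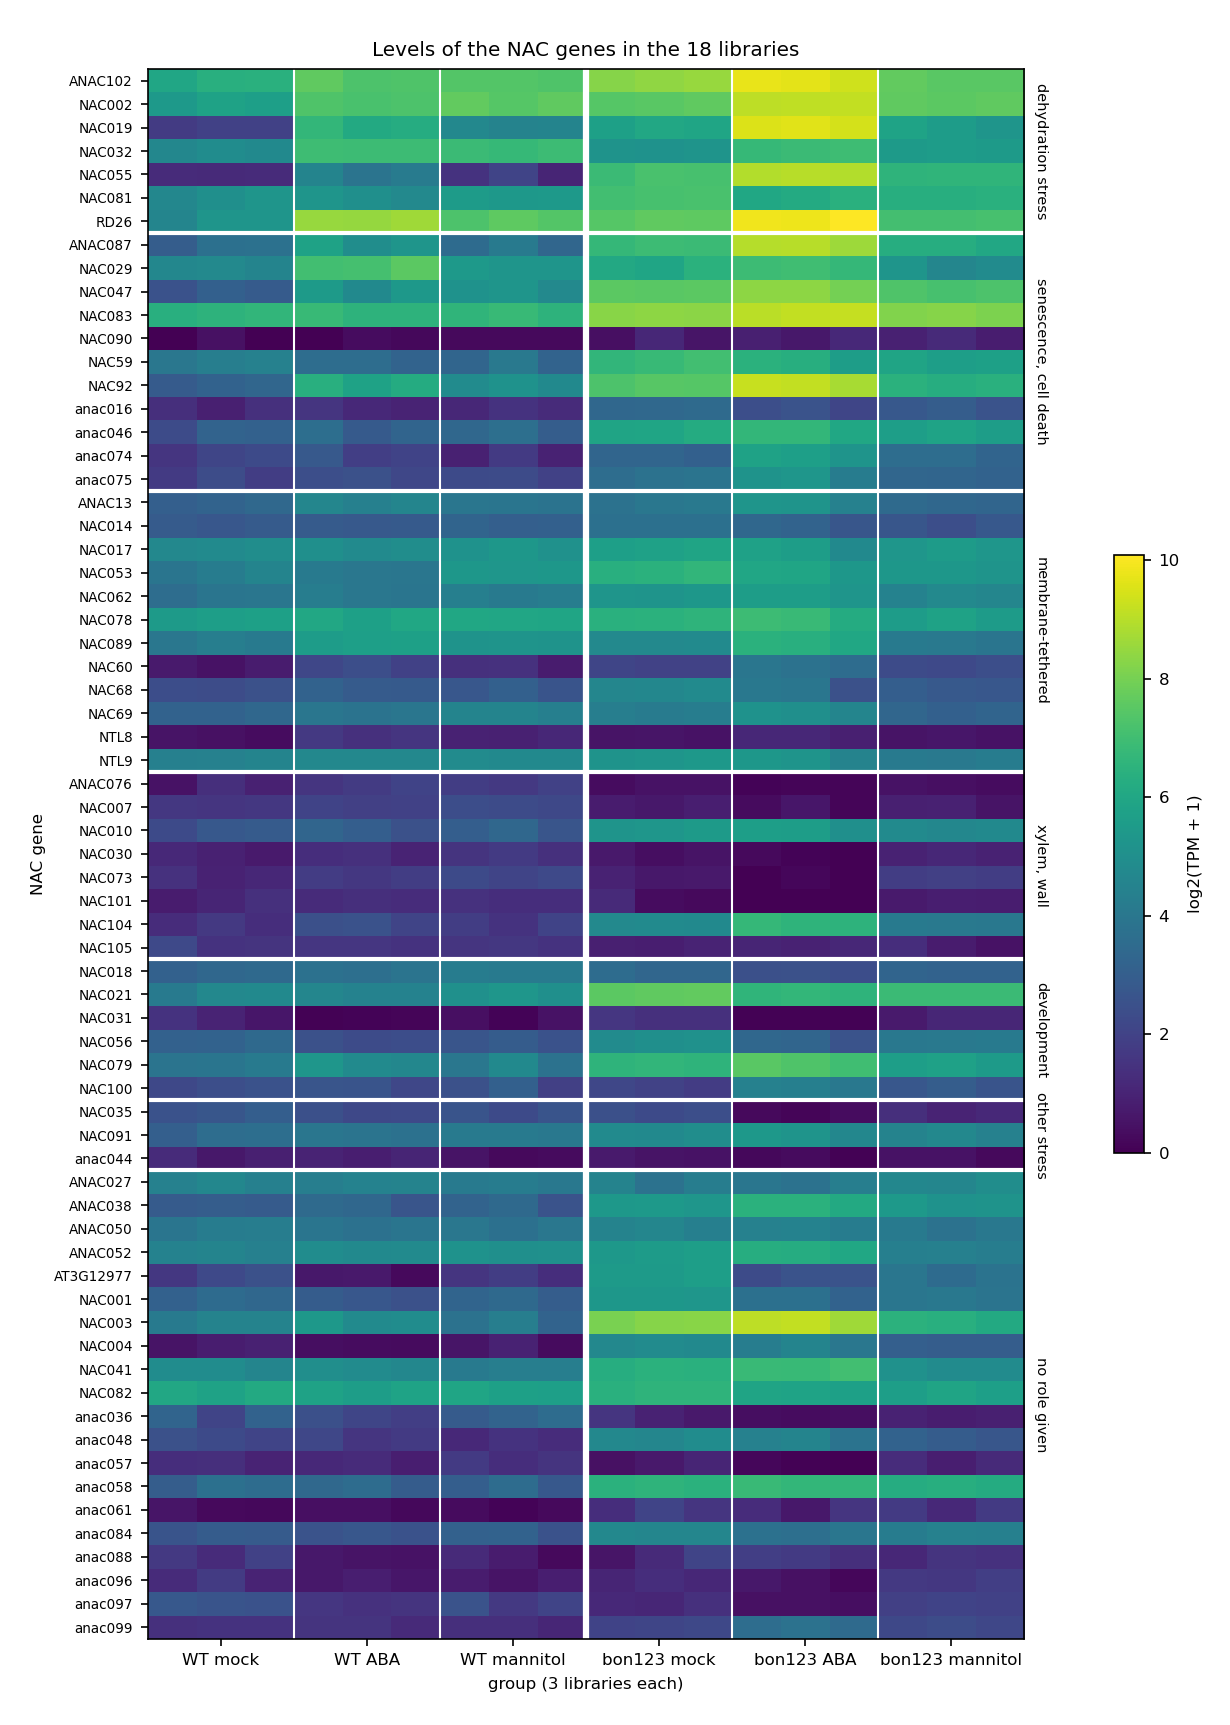
Level of each of the 67 NAC genes as log2(TPM + 1) (colour) in the 18 libraries (columns, 3 per group), with genes grouped by role. Most dehydration and senescence genes are brightest in bon123 ABA, where RD26 averaged 973.2 TPM (NAC032, NAC081, NAC029, NAC59, anac016 and NAC090 are not), while most vessel genes are darkest there.

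Each comparison was tested with limma on log2(TPM + 1) over all 21727 genes, with Benjamini-Hochberg adjustment, and a gene is said to rise, fall, be higher or be lower only where the adjusted p was under 0.05. Of the 67 members, 24 rose and 10 fell in WT after ABA (35.8% and 14.9%), against 18.9% and 30.6% of all genes. After mannitol in WT, 24 rose and 12 fell, against 25.5% and 25% of all genes, and 6 fell without WT mock replicate 3 or without WT mannitol replicate 3. In bon123, ABA raised 26 members and lowered 26, against 15.1% and 55.5% of all genes, and mannitol raised 7 and lowered 34, against 12.6% and 48.8%. The shares of members after mannitol, 10.4% and 50.7%, were near those of all genes. Without bon123 ABA replicate 3, the library described above, 30 rose and 20 fell in bon123 after ABA.

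The difference between genotypes touched more members than either treatment. In mock, 50 members were higher in bon123 and 11 lower, against 40.1% and 33.7% of all genes, with a median log2 fold change of 1.37 for members and 0.13 for all genes. Without bon123 mock replicate 2, 7 were lower. Under ABA 45 were higher and 14 lower, against 28.9% and 47.5%, and under mannitol 35 were higher and 19 lower, against 25.4% and 49.3%. Of the members, 5 reached 1 TPM in fewer than 3 WT libraries and 7 in fewer than 3 bon123 libraries. These 12 passed the filter mainly through the genotype with the higher level, so their calls between genotypes follow in part from the filter and the counts are descriptions.

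The response to treatment was tested for a difference between genotypes as an interaction, the bon123 response minus the WT response. For ABA it was positive in 7 members and negative in 26 (10 and 25 without bon123 ABA replicate 3), against 9.51% and 43% of all genes. For mannitol it was positive in 4 and negative in 39, against 17% and 45.3%. ABA against mannitol gave 16 members higher and 11 lower in WT (6 lower without WT ABA replicate 2 or WT mannitol replicate 1), against 11% and 19.1%, and 37 and 15 in bon123, against 31.1% and 39.4%.

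**Figure D2:**
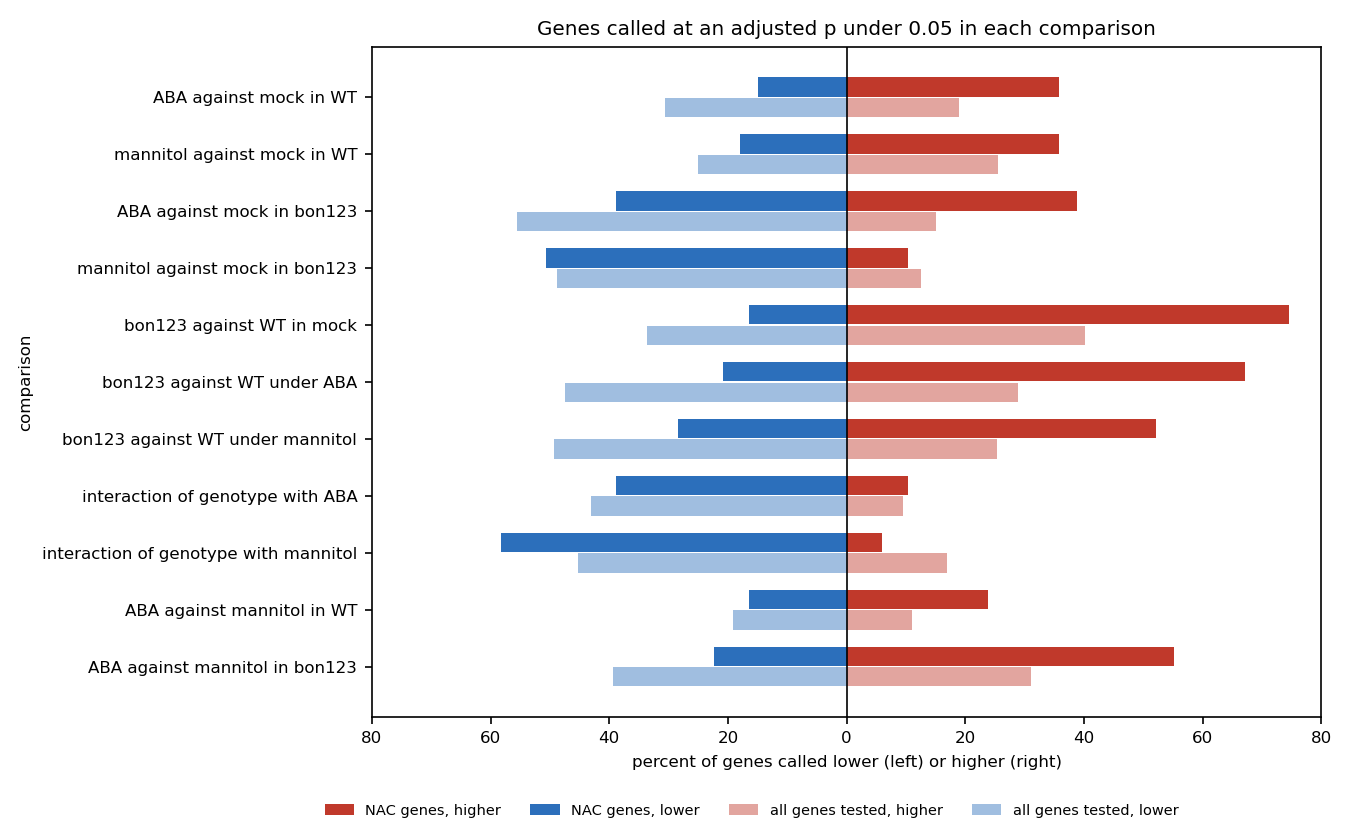
Percent of the 67 NAC genes (dark bars) and of the 21727 genes tested (pale bars) called higher (right, red) or lower (left, blue) in each of 11 comparisons. Higher calls are a larger share of the NAC genes than of all genes in bon123 against WT, 74.6% against 40.1% in mock, and a smaller share in the interaction with mannitol.

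The balance of calls in bon123 depended on how libraries were scaled to each other. As deposited, the median gene had a log2 fold change of -0.51 in bon123 after ABA, -0.36 after mannitol, -0.31 between genotypes under ABA, -0.36 under mannitol and -0.44 and -0.42 in the interactions. With median-of-ratios scaling these medians became -0.03, 0.01, 0.00, -0.03, 0.04 and 0.05. The members that rose and fell were then 36 and 14 in bon123 after ABA and 15 and 21 after mannitol, and 43 were higher and 11 lower between genotypes under mannitol. Interactions with ABA were then positive in 21 and negative in 14, and those with mannitol positive in 10 and negative in 27. Values with this scaling are called scaled values below. They are given beside many printed values that they reverse, take out of the calls or move by over 1.5 times, but not beside all. A value printed alone may thus still depend on scaling.

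The 7 dehydration members, ATAF1 (NAC002, AT1G01720), ATAF2 (NAC081, AT5G08790), NAC032 (AT1G77450), ANAC102, NAC019 (AT1G52890), NAC055 (AT3G15500) and RD26, activate or, in the case of ATAF2, repress genes of the response to water loss and wounding. In WT, 6 rose after ABA and 6 after mannitol, against 18.9% and 25.5% of all genes, and no member fell. All 7 were higher in bon123 mock than in WT mock, against 40.1% of all genes. In bon123, 6 rose after ABA and ATAF2 fell, against 15.1% and 55.5% of all genes. After mannitol NAC032 alone rose and 4 fell, against 12.6% and 48.8% of all genes. With median-of-ratios and with upper-quartile scaling 2 rose and 1 fell, and NAC055 had a scaled value of 0.03.

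NAC019 was at 2.41, 2.85 and 2.89 TPM in WT mock, 100.55, 69.12 and 75.49 in WT ABA and 25.20, 21.54 and 22.21 in WT mannitol. In bon123 it was at 52.28, 66.16 and 60.71 TPM in mock, 758.67, 806.51 and 697.66 under ABA and 56.32, 47.25 and 37.77 under mannitol. No WT group overlapped another, and every bon123 mock library lay above every WT mannitol library, while the bon123 mock and mannitol groups overlapped. It rose after ABA by a log2 fold change of 4.46 ± 0.15 in WT (SE, n = 3 per group here and throughout, limma, adjusted p = 8.71e-12) and of 3.64 ± 0.15 in bon123 (8.97e-12). After mannitol it rose by 2.69 ± 0.15 in WT (1.17e-09), and in bon123 its value was -0.35 ± 0.15 (0.0552). In bon123 the scaled value after mannitol was 0.16 and not called. The interaction with mannitol was -3.04 ± 0.21 (limma, Benjamini-Hochberg adjusted p = 2.19e-08), and -2.42 with median-of-ratios scaling.

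RD26, an activator of dehydration genes, was at 23.32, 37.43 and 37.72 TPM in WT mock, 373.91, 363.21 and 400.15 in WT ABA and 153.43, 190.15 and 168.80 in WT mannitol. In bon123 its levels were 169.97, 198.30 and 188.95 TPM in mock, 929.31, 900.26 and 1090.15 under ABA and 134.74, 135.27 and 140.75 under mannitol. The untreated mutant thus overlapped the mannitol-treated WT, and the mannitol-treated mutant lay below both. Its log2 fold change was 3.52 after ABA and 2.37 after mannitol in WT. In bon123 these were 2.38 and -0.43 ± 0.15 (limma, adjusted p = 0.0174), and the latter was 0.08 and not called with median-of-ratios scaling. Its interaction with mannitol was -2.81 ± 0.21 (limma, adjusted p = 3.71e-08).

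NAC055, which also responds to jasmonate, showed the greatest difference between genotypes of the members named by the rule. It was at 1.34, 1.28 and 1.39 TPM in WT mock, 22.55, 13.58 and 17.28 in WT ABA and 1.75, 3.20 and 1.08 in WT mannitol. The bon123 libraries held 115.65, 144.50 and 142.68 TPM in mock, 487.19, 517.31 and 488.55 under ABA and 92.83, 96.67 and 96.32 under mannitol. Every bon123 library was above every WT library. The difference was 5.85 ± 0.20 in mock, 4.76 ± 0.20 under ABA and 5.06 ± 0.20 under mannitol on the log2 scale (limma, adjusted p = 3.76e-13, 2.71e-12 and 2.16e-12). Unlike the other activators of the group it was not called after mannitol in WT (0.30 ± 0.20, limma adjusted p = 0.221), and its response to ABA exceeded that to mannitol there by 2.68 ± 0.20.

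NAC032 had the smallest difference between genotypes of the group in mock and under ABA, but not under mannitol. WT libraries held 24.17, 29.28 and 26.87 TPM in mock, 124.43, 119.83 and 120.39 under ABA and 117.73, 107.91 and 120.19 under mannitol. In bon123 it was at 34.91, 34.80 and 36.35 TPM in mock, 106.53, 118.26 and 122.71 under ABA and 43.79, 46.59 and 44.81 under mannitol. The ABA-treated groups overlapped, whereas each mannitol-treated mutant library lay far below each mannitol-treated WT library. The log2 difference of bon123 from WT was 0.39 ± 0.08 in mock (limma, adjusted p = 0.000349), -0.07 ± 0.08 under ABA (0.429) and -1.33 ± 0.08 under mannitol (3.77e-10). With median-of-ratios scaling the mock value was 0.21 and not called. The value under ABA was then 0.35 and called (limma, adjusted p = 0.0125), so the difference under ABA depended on scaling.

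ATAF1 rose in WT by 1.63 ± 0.10 after ABA and 1.94 ± 0.10 after mannitol. It averaged 191.1 ± 16.3 TPM in WT mannitol, 182.4 ± 12.3 in bon123 mock and 192.6 ± 7.3 in bon123 mannitol, groups that overlapped as deposited. Under mannitol ATAF1 was higher in bon123 than in WT by 0.42 with median-of-ratios and by 0.28 with upper-quartile scaling, both called. Its response to mannitol in bon123 was 0.08 ± 0.10 (limma, adjusted p = 0.512), which became 0.59 and was called with median-of-ratios scaling, and its interaction with mannitol was -1.87 ± 0.14 (4.71e-08). ANAC102 behaved alike in WT, rising by 1.16 and 1.13, but fell in bon123 after mannitol by 0.85 ± 0.13 on the log2 scale (scaled value -0.34, still called). ATAF2 was the member of the group that ABA did not raise in either genotype. Its value in WT was 0.02 ± 0.14 (limma, adjusted p = 0.918) and in bon123 it fell by 0.91 ± 0.14 (2.76e-05), a value of -0.23 and not called with median-of-ratios scaling.

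All 7 interactions of this group with mannitol were negative and called, against 45.3% of all genes, with a median of -1.87. With median-of-ratios scaling 6 were so, NAC055 being the exception at -0.21. For ABA, where 43% of all genes had a negative call, 5 interactions were negative and called as deposited. With upper-quartile scaling 4 of these were called, RD26 (-0.88), NAC055 (-0.82), ATAF2 (-0.68) and NAC019 (-0.56). With median-of-ratios scaling none was called, the same 4 having values of -0.53 to -0.18 and NAC032 one of 0.14, while ATAF1 and ANAC102 were positive and called (0.60 and 0.65).

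**Figure D3:**
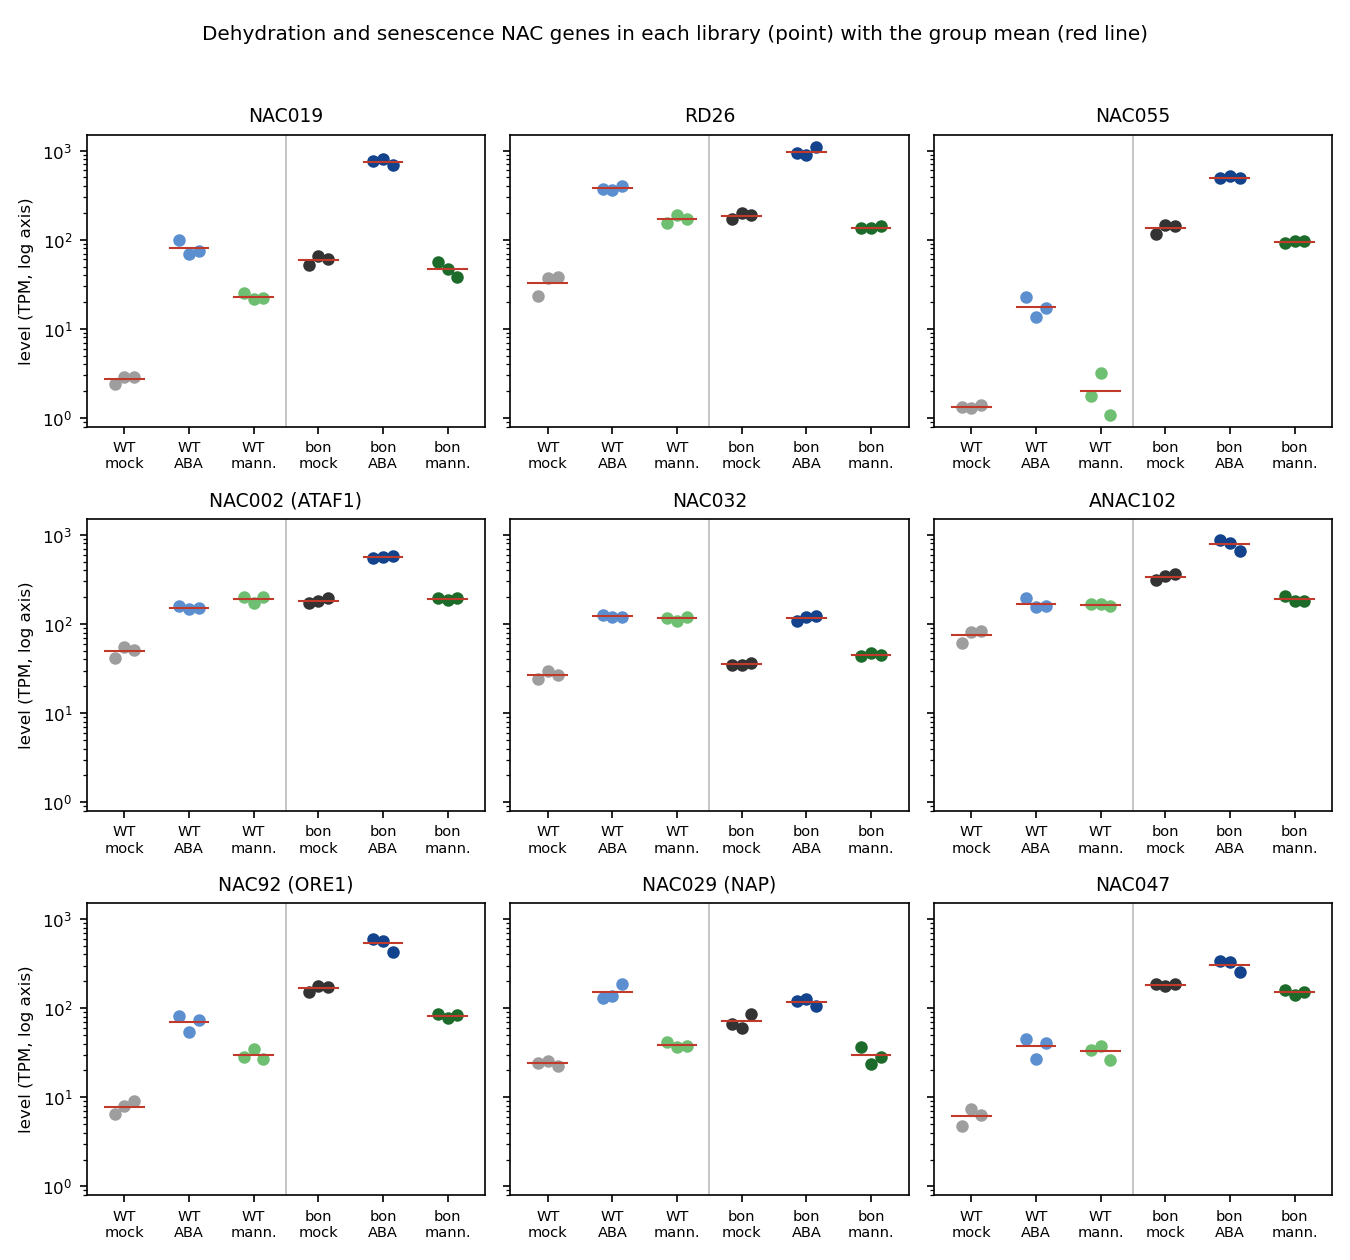
Level of 9 NAC genes in TPM on a log axis in each library (points, 3 per group) with the group mean (red line), for WT (left of the grey line) and bon123 (right). For most of the genes bon123 mock sits at or above WT mannitol, and bon123 mannitol does not sit above bon123 mock except for NAC032 and, by its mean, NAC002.

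The 11 senescence and cell death members were all higher in bon123 mock than in WT mock, against 40.1% of all genes. In WT, 4 rose after ABA and 1 fell, against 18.9% and 30.6% of all genes, and 3 rose after mannitol and 2 fell, against 25.5% and 25%. In bon123, 7 rose after ABA and 2 fell, against 15.1% and 55.5% of all genes. After mannitol none rose and 5 fell, against 12.6% and 48.8% of all genes. With median-of-ratios scaling the last counts were 3 and 3.

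NAC92 (AT5G39610, ORE1, an activator of leaf senescence with a miR164 site) was at 6.53, 7.98 and 8.99 TPM in WT mock, 82.20, 54.65 and 72.86 in WT ABA and 28.19, 34.54 and 26.82 in WT mannitol. The corresponding bon123 libraries held 152.12, 177.05 and 171.94 TPM in mock, 597.99, 569.97 and 431.15 under ABA and 86.71, 77.10 and 83.94 under mannitol. No group overlapped another except WT ABA and bon123 mannitol, whose ranges met. It rose in WT by 2.99 ± 0.16 after ABA and by 1.81 ± 0.16 after mannitol. In bon123 it rose after ABA by 1.66 ± 0.16 and fell after mannitol by 1.01 ± 0.16 on the log2 scale (limma, adjusted p = 5.23e-05, scaled value -0.50, still called). The interaction with mannitol was -2.81 ± 0.22 (limma, adjusted p = 7.66e-08), and -2.21 with median-of-ratios scaling.

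NAC029 (AT1G69490, NAP, an activator of senescence and chlorophyll breakdown) was at 24.17, 25.60 and 22.28 TPM in WT mock, 129.91, 136.80 and 184.56 in WT ABA and 42.12, 36.97 and 37.31 in WT mannitol. In bon123 it was at 66.48, 60.30 and 86.63 TPM in mock, 121.60, 125.74 and 105.58 under ABA and 36.90, 23.89 and 28.31 under mannitol. It was thus higher in the untreated mutant than in untreated WT, but no bon123 library under ABA or mannitol exceeded the WT libraries of the same treatment. The log2 difference between genotypes was 1.51 ± 0.16 in mock (limma, adjusted p = 4.56e-07), -0.34 ± 0.16 under ABA (0.0727) and -0.39 ± 0.16 under mannitol (0.0406). With median-of-ratios scaling the values under ABA and mannitol were 0.085 and 0.01, and neither was called. The interaction with ABA was -1.85 ± 0.23 (limma, adjusted p = 8.56e-06), and -1.24 and called with median-of-ratios scaling.

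NAC047 (AT3G04070, SHYG, known for leaf movement in flooded plants) was at 4.82, 7.45 and 6.37 TPM in WT mock and at 186.70, 178.80 and 185.77 in bon123 mock, a log2 difference of 4.70 ± 0.18 (limma, adjusted p = 1.85e-12). After ABA it rose by 2.40 in WT and 0.72 in bon123 (scaled value 1.40), and after mannitol by 2.22 in WT, with -0.29 ± 0.18 in bon123 (limma, adjusted p = 0.19). ANAC087 (AT5G18270, an activator of root cap cell death) rose after ABA by 1.86 ± 0.25 in WT and 2.03 ± 0.25 in bon123, where mock libraries held 103.55 to 121.55 TPM and ABA libraries 392.21 to 511.55. Its relative anac046 (AT3G04060) was not called after any treatment, but was higher in bon123 mock by 3.13.

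anac074 (AT4G28530, KIR1, an activator of cell death in the stigma) differed between genotypes in its response to ABA. It was at 1.98, 3.36 and 3.82 TPM in WT mock, 6.07, 2.67 and 3.07 in WT ABA and 0.92, 2.28 and 0.96 in WT mannitol. In bon123 it was at 8.69, 8.66 and 7.55 TPM in mock, 55.63, 50.63 and 36.73 under ABA and 11.06, 11.19 and 8.44 under mannitol. The WT mock and WT ABA libraries overlapped, and all bon123 ABA libraries were above all others. Its log2 fold change after ABA was 0.25 ± 0.26 in WT (limma, adjusted p = 0.461) and 2.37 ± 0.26 in bon123 (6.65e-07), with an interaction of 2.12 ± 0.37 (0.000199).

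NAC083 (VNI2), the most abundant member in WT mock, was not called after ABA or mannitol in WT. In bon123 it rose after ABA by 0.79 ± 0.10 (limma, adjusted p = 2.05e-06, scaled value 1.475), and it was higher than in WT by 1.84 in mock and 2.52 under ABA. NAC59 (AT3G29035, ORS1, an activator of leaf senescence) fell in all 4 treatment comparisons, by 0.69 to 1.07 on the log2 scale (scaled values in bon123 -0.01, not called, after ABA and -0.56 after mannitol), although it was higher in bon123 by 2.23 to 2.65. anac016 (AT1G34180) was higher in bon123 mock by 2.22 and fell in bon123 after ABA by 1.04 (scaled value -0.46). anac075 (AT4G29230), linked to flowering and leaf senescence, rose in bon123 after ABA by 1.16 (scaled value 1.81), and NAC090 (AT5G22380), a repressor of senescence, was at no more than 0.36 TPM in any WT library.

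A list of 11 genes known as direct or downstream targets of senescence NAC proteins was followed beside them. In WT, 9 rose after ABA and 8 after mannitol, against 18.9% and 25.5% of all genes, and no target fell. In bon123, 10 rose after ABA, against 15.1% of all genes, but 2 rose and 6 fell after mannitol, against 12.6% and 48.8%. The chlorophyll breakdown gene PAO had a log2 fold change after mannitol of 3.03 in WT and -1.07 in bon123, and the phosphatase gene HAI1, a target of NAP, of 4.41 and 0.85. All counts and values of this list are as deposited, where the median gene had -0.36 in bon123 after mannitol. Scaled values are not given, so the number and size of the falls there may depend on scaling. Of the targets, 6 were higher and 1 lower in bon123 mock, against 40.1% and 33.7% of all genes. Under ABA 6 were higher and 2 lower, against 28.9% and 47.5%, and under mannitol 2 were higher and 8 lower, against 25.4% and 49.3%. The summed level of the list was 216.92 to 296.71 TPM in WT mock, 2430.9 to 3060.1 in WT ABA and 2364 to 2542.7 in WT mannitol. In the mutant it was 400.92 to 421.45 TPM without treatment, 2725.9 to 3694.1 with ABA and 283.17 to 336.26 with mannitol, so the sums overlapped under ABA. That overlap held opposite differences, since the sugar transporter gene SAG29 was at 1420.29 to 1716.75 TPM in WT ABA and 420.32 to 515.27 in bon123 ABA, and the nuclease gene BFN1 at 37.43 to 85.77 and 817.28 to 978.74.

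**Figure D4:**
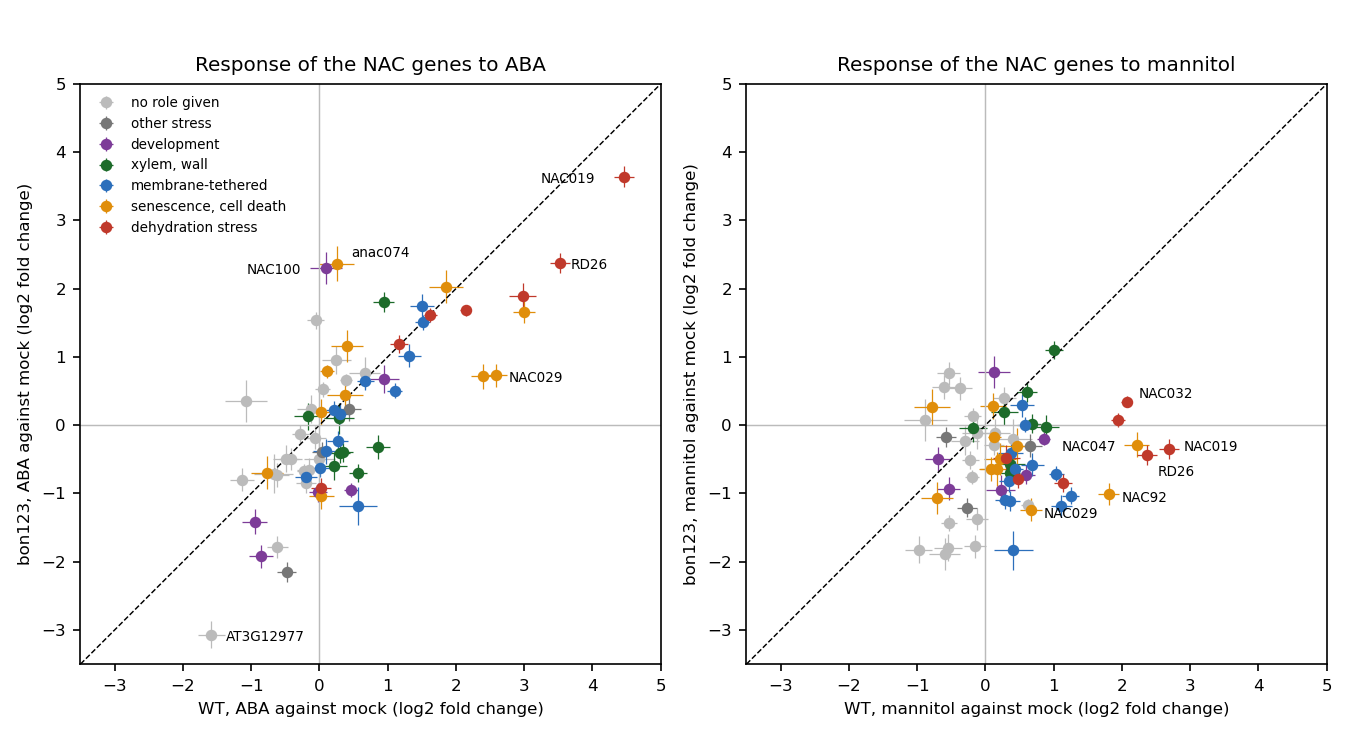
Log2 fold change of each NAC gene against mock in bon123 (vertical axis) and in WT (horizontal axis), for ABA (left) and mannitol (right), coloured by role, with bars of 1 SE and a dashed line of equal response. For ABA, NAC019 and RD26 lie high on both axes, and for mannitol the dehydration and senescence genes that rose in WT lie near or below 0 in bon123.

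The 12 membrane-tethered members are made as dormant proteins anchored by a C-terminal helix, so that transcript level is only part of their control. In WT, 5 rose after ABA and 7 after mannitol, against 18.9% and 25.5% of all genes, with no member falling. These counts were 9 and 9 with median-of-ratios scaling, and 8 and 12 without bon123 ABA replicate 3. In bon123 mock, 11 were higher than in WT mock, against 40.1% of all genes. In bon123, 5 rose and 3 fell after ABA (8 and 1 with median-of-ratios scaling), against 15.1% and 55.5% of all genes. After mannitol none rose and 9 fell (1 and 7 with that scaling), against 12.6% and 48.8%. The interaction with mannitol was negative and called in 11, against 45.3% of all genes, and in 9 with median-of-ratios scaling.

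NAC089 (AT5G22290), a factor of sugar signalling and endoplasmic reticulum stress, was at 15.02, 18.85 and 16.80 TPM in WT mock, 46.83, 50.31 and 52.48 in WT ABA and 35.36, 36.18 and 35.50 in WT mannitol. In bon123 it was at 25.58, 26.08 and 27.19 TPM in mock, 86.20, 81.36 and 64.05 under ABA and 16.89, 15.94 and 14.25 under mannitol. The mannitol-treated mutant overlapped untreated WT and lay below the untreated mutant. The log2 fold change after ABA was 1.51 ± 0.11 in both genotypes, and after mannitol it was 1.04 ± 0.11 in WT and -0.71 ± 0.11 in bon123 (limma, adjusted p = 9.69e-07 and 3.92e-05). The scaled value of the last was -0.22 and called. The equal values after ABA are as deposited, where the median gene had -0.11 in WT and -0.51 in bon123. That equality may thus depend on scaling.

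NAC053 (AT3G10500, NTL4, which acts in proteasome stress and drought-induced reactive oxygen production) was called after mannitol but not after ABA in WT. It was at 14.05, 17.69 and 22.23 TPM in WT mock, 16.61, 14.99 and 14.37 under ABA and 39.79, 38.98 and 39.65 under mannitol, and at 82.18, 87.14 and 100.00 TPM in bon123 mock, 61.01, 59.72 and 39.45 under ABA and 39.95, 39.98 and 36.77 under mannitol. As deposited, the mannitol libraries of both genotypes overlapped although their mock libraries did not. The median gene then had -0.36 in bon123 against WT under mannitol, so this overlap may depend on scaling. Its response to mannitol was 1.11 ± 0.16 in WT and -1.18 ± 0.16 in bon123 (limma, adjusted p = 2.66e-05 and 1.23e-05), an interaction of -2.30 ± 0.23 (5.69e-07), and the scaled value in bon123 was -0.68. ABA minus mannitol in WT was -1.31 ± 0.16 (limma, adjusted p = 1.56e-05).

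NAC69 (AT4G01550, NTM2, a factor of salt and auxin responses) rose in WT by 0.67 after ABA and 1.25 after mannitol, and in bon123 rose by 0.65 after ABA and fell by 1.03 after mannitol (scaled values 1.31 and -0.56). ANAC13 (AT1G32870) and NAC017 (AT1G34190), which signal from mitochondria, differed from each other: ANAC13 rose in WT after ABA by 1.32 and mannitol by 0.69, whereas NAC017 was not called in any of the 4 treatment comparisons. NAC60 (AT3G44290), linked to sugar and ABA signalling, rose by 1.51 in WT and 1.75 in bon123 after ABA. NTL8 (AT2G27300), linked to salt and germination, was the member not called in bon123 mock (0.09), and reached 1 TPM in 6 libraries. NAC68 (AT4G01540, NTM1) fell in bon123 by 1.19 after ABA (scaled value -0.55) and 1.83 after mannitol. Its transcript is 96.0% identical to that of anac067 over 898 bases, and although anac067 was at no more than 0.21 TPM, reads shared by both make the values of NAC68 uncertain.

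Of 4 genes known to respond to mitochondrial stress through ANAC13 and NAC017, all rose in WT after ABA and 2 rose and 1 fell after mannitol. Of all genes in WT, 18.9% rose after ABA, and 25.5% rose and 25% fell after mannitol. In bon123, 1 rose and 2 fell after ABA and 3 fell after mannitol, where 55.5% and 48.8% of all genes fell. The alternative oxidase gene AOX1A rose in WT by 0.78 after ABA and 1.27 after mannitol, and in bon123 rose by 1.03 after ABA and fell by 0.52 after mannitol. UGT74E2, a glucosyltransferase gene, rose by 1.99 and 2.40 in WT and fell by 1.3 and 0.57 in bon123. The counts and values of this list are as deposited, where the median gene had -0.36 in bon123 after mannitol. Scaled values are not given, and the falls of AOX1A and UGT74E2 after mannitol in bon123 may depend on scaling.

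Among the 8 xylem and wall members, the genotypes differed in opposite directions. In bon123 mock 6 were lower, namely the vessel genes NAC007 (AT1G12260, VND4), ANAC076 (AT4G36160, VND2), NAC105 (AT5G66300, VND3), NAC101 (AT5G62380, VND6) and NAC030 (AT1G71930, VND7) and the wall gene NAC073 (AT4G28500, SND2), by 0.40 to 0.86 on the log2 scale. NAC104 (AT5G64530, XND1), a repressor of vessel formation, and NAC010 (AT1G28470, SND3), a wall gene, were higher. Of all genes, 33.7% were lower and 40.1% higher in bon123 mock. In WT, 4 members rose after ABA and 4 after mannitol, against 18.9% and 25.5% of all genes, and no member fell. In bon123, 1 rose and 4 fell after ABA, against 15.1% and 55.5% of all genes. These counts were 2 and 2 under median-of-ratios scaling and 1 and 2 without bon123 ABA replicate 3. After mannitol 2 rose and 2 fell, against 12.6% and 48.8% of all genes, with 2 and 0 under either other scaling.

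NAC104 was at 1.40, 2.17 and 1.50 TPM in WT mock, 4.47, 4.87 and 3.19 in WT ABA and 2.54, 1.76 and 3.08 in WT mannitol. The bon123 libraries held 26.13, 27.47 and 26.40 TPM in mock, 103.22, 94.17 and 90.47 under ABA and 16.59, 16.09 and 15.44 under mannitol. Every bon123 library was above every WT library. The log2 difference was 3.37 ± 0.15 in mock, 4.24 ± 0.15 under ABA and 2.32 ± 0.15 under mannitol (limma, adjusted p = 8.98e-12, 3.41e-13 and 9.64e-10). NAC104 and NAC083, both known as repressors of vessel formation, were thus higher in bon123 under all 3 treatments.

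The 6 lower genes were at low levels throughout. NAC073 was at 1.73, 0.96 and 1.19 TPM in WT mock, 2.47, 2.07 and 2.54 in WT ABA and 3.75, 3.22 and 3.71 in WT mannitol, and at 0.96, 0.55 and 0.61 TPM in bon123 mock, 0.02, 0.12 and 0 under ABA and 2.58, 2.77 and 2.59 under mannitol. In the mutant it therefore fell close to 0 with ABA and rose above untreated WT with mannitol, by -0.70 ± 0.13 and 1.1 ± 0.13 on the log2 scale (limma, adjusted p = 0.000177 and 3.64e-06). NAC101 was listed at 0 in all 3 bon123 ABA libraries, against 1.37 to 1.55 TPM in WT ABA. NAC007, ANAC076, NAC030 and NAC101 reached 1 TPM in at most 1 bon123 library each, so they passed the filter through WT.

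**Figure D5:**
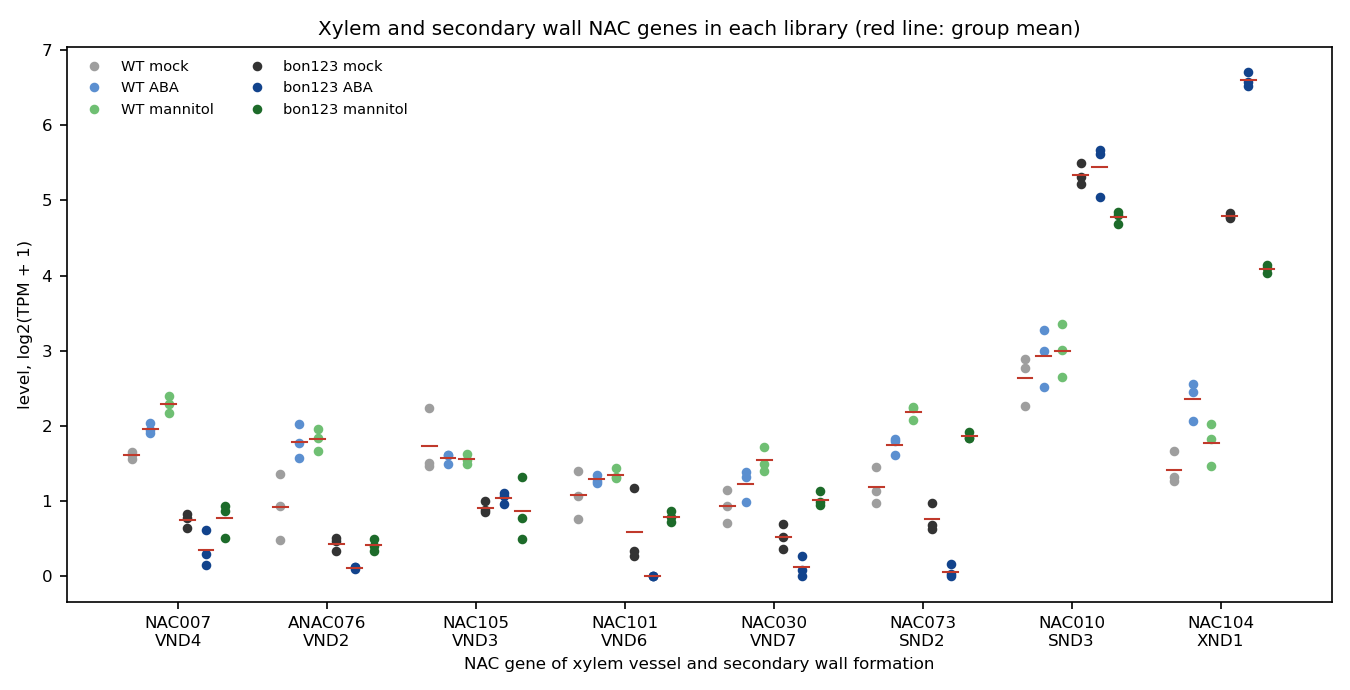
Level of the 8 xylem and wall NAC genes as log2(TPM + 1) in each library (points, 3 per group, coloured by group) with the group mean (red line). NAC104 (XND1) and NAC010 (SND3) are higher in bon123 than in WT, and the other 6 are lower in bon123 mock.

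A list of 8 targets of these factors, cellulose synthases, MYB factors and proteases of the secondary wall, was followed as well. In WT, 4 rose after ABA and 7 after mannitol, against 18.9% and 25.5% of all genes, and no target fell. In bon123, 1 rose and 6 fell after ABA, and 4 rose and none fell after mannitol, against 15.1% and 55.5% of all genes after ABA and 12.6% and 48.8% after mannitol. The cellulose synthase gene CESA7 changed in WT by 0.70 and 1.17, and in bon123 by -1.49 and 0.48. The exception was MC9, a metacaspase gene of dying vessel cells, which rose by 3.51 in bon123 after ABA. It made up most of the summed level of the list in bon123 ABA, 300.85 to 342.20 of 312.49 to 351.4 TPM. Of the 8 targets, 7 were lower in bon123 than in WT under ABA, against 47.5% of all genes.

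The 6 developmental members included 3 with a miR164 site. NAC021 (AT1G56010, NAC1, which acts in lateral root formation) was at 16.27, 25.18 and 26.52 TPM in WT mock, 23.69, 20.99 and 21.05 in WT ABA and 32.69, 38.24 and 31.27 in WT mannitol, and at 185.61, 195.44 and 201.85 TPM in bon123 mock, 97.42, 101.19 and 94.29 under ABA and 118.24, 116.19 and 117.08 under mannitol. Every bon123 library exceeded every WT library, by 3.07 ± 0.13 in mock. NAC021 fell in bon123 by 0.99 after ABA and 0.72 after mannitol (limma, adjusted p = 7.01e-06 and 0.000246), with scaled values of -0.30, called, and -0.21, not called. NAC079 (AT5G07680) was higher in bon123 mock by 2.62 ± 0.21 and rose after ABA by 0.95 in WT and 0.68 in bon123 (scaled value 1.36).

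NAC100 (AT5G61430), the third, was at 3.57, 4.32 and 4.84 TPM in WT mock, 5.39, 5.21 and 3.41 in WT ABA, 3.46, 2.96 and 2.46 in bon123 mock, 20.34, 19.61 and 15.64 in bon123 ABA and 5.59, 6.78 and 5.10 in bon123 mannitol. It rose after ABA in bon123 by 2.30 ± 0.23, with a WT value of 0.10 ± 0.23, and the interaction was 2.20 ± 0.33 (limma, adjusted p = 4.93e-05). Its difference between genotypes in mock was -0.41 ± 0.23 (limma, adjusted p = 0.13). Of the 5 members whose sites are printed above, the other 4 were higher in bon123 mock, by 2.62 to 4.26. After ABA in bon123, NAC92, NAC079 and NAC100 rose and NAC021 and AT3G12977 fell.

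AT3G12977, a NAC gene with a miR164 site but no role assigned, showed the largest fall with ABA in both genotypes among members with a mean log2 level of at least 2. It was at 2.07, 3.62 and 4.65 TPM in WT mock, 0.56, 0.60 and 0.20 in WT ABA, 44.82, 44.45 and 49.88 in bon123 mock and 3.97, 5.05 and 4.95 in bon123 ABA. The mutant under ABA overlapped untreated WT. The log2 fold change was -1.58 ± 0.20 in WT and -3.07 ± 0.20 in bon123 (limma, adjusted p = 9.24e-06 and 1.34e-09).

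The seed coat genes NAC018 (AT1G52880, NAM) and NAC056 (AT3G15510, NARS1) moved in opposite directions in WT, and both fell in bon123 after ABA. NAC018 rose in WT by 0.47 after ABA and 0.85 after mannitol and fell in bon123 by 0.95 after ABA, an interaction of -1.42 ± 0.14 (limma, adjusted p = 9.03e-07), with scaled values of -0.355 and -0.89. NAC056 fell in all 4 treatment comparisons, by 0.54 to 1.92 (scaled value after mannitol in bon123 -0.44). The organ boundary gene NAC031 (AT1G76420, CUC3), at no more than 2.02 TPM, fell in all 4 as well, but its scaled value after mannitol in bon123, -0.20, was not called. Among the 3 members of other stress responses, NAC035 (AT2G02450, LOV1, a factor of flowering time and cold) was at 4.45, 3.87 and 4.39 TPM in bon123 mock and 0.18, 0.10 and 0.26 in bon123 ABA. NAC091 (AT5G24590, TIP), whose product binds a viral coat protein, was higher in bon123 mock by 1.41.

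Of the 20 members with no role assigned, NAC003 (AT1G02220) and NAC004 (AT1G02230) had the largest differences between genotypes in mock and under ABA, NAC004 passing the filter through bon123 alone. Under mannitol anac058 (AT3G18400) differed more. NAC003 was at 16.25 to 21.65 TPM in WT mock and 266.00 to 316.06 in bon123 mock, and its log2 difference was 3.84 ± 0.23 in mock, 3.94 under ABA and 2.55 under mannitol. NAC004 reached at most 0.97 TPM in any WT library, stood between 6.77 and 27.85 TPM in those of bon123, and was lower with mannitol than with mock in bon123 by 1.78 ± 0.17. anac058 was higher in bon123 by 3.06 to 3.42, and by 3.13 under mannitol. It was not called in any of the 4 treatment comparisons.

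Other members without a role went different ways. NAC001 (AT1G01010) fell after ABA by 0.61 in WT and 1.79 in bon123 (scaled value -1.14), and anac048 (AT3G04420) fell after mannitol by 0.98 in WT and 1.82 in bon123. anac099 (AT5G56620) rose after ABA in bon123 by 1.54, with -0.05 in WT and an interaction of 1.59. ANAC027 (AT1G64105) was among the few members that rose in bon123 after mannitol (0.54), with an interaction of 0.91 ± 0.24 (scaled values 1.03 and 1.48). ANAC052 (AT3G10490) was lower in bon123 than in WT under mannitol by 0.73 (scaled value -0.33) and higher in mock by 1.05. anac084 (AT5G14000) was lower under ABA than under mannitol in bon123 by 0.55.

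The members held 8 pairs of genes next to each other on a chromosome, 15 genes in all. Over 11 comparisons, neighbours had opposite calls in 12 of 88 cases, 2 of the 8 pairs in WT after ABA, 5 in bon123 after ABA and 0 after mannitol in either genotype. Pairs of members that are not neighbours were not counted. Among the neighbours, NAC055 rose and NAC056 fell in WT after ABA, by 2.98 and 0.86, and NAC019 rose and NAC018 fell in bon123 after ABA. NAC003 rose while NAC004 fell after ABA in both genotypes. In WT, NAC004 had at most 0.97 TPM and a value of -0.42 ± 0.17 (limma, adjusted p = 0.0448). In bon123 its value was 0.16 with median-of-ratios scaling. ANAC052 rose by 0.66 and NAC053 fell by 0.76 in bon123 after ABA (scaled values 1.34 and -0.08, the latter not called). No source used here says whether reads were counted by strand, so reads of overlapping transcripts cannot be told apart.

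ABA and mannitol were also compared directly. In WT the members most above their mannitol level under ABA were NAC055 (2.68), NAC029 (1.91), NAC019 (1.77), ANAC087 (1.69) and NAC003 (1.26). In bon123 they were NAC019 (3.99), RD26 (2.82), ANAC087 (2.67), NAC92 (2.66) and NAC003 (2.65). ATAF1 was lower under ABA than under mannitol in WT by 0.32 ± 0.10 and higher in bon123 by 1.53 ± 0.10 (limma, adjusted p = 0.0235 and 1.31e-09). The WT value was not called with either other scaling (-0.16 with median-of-ratios and -0.25 with upper-quartile scaling).

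Some rows lay at the edge of the filter on low values or outside the rule. Just inside, anac044 (AT3G01600) and NAC090 reached 1 TPM in 3 libraries, and just outside, NAC020 and NAC026 (VND5) did so in 2 and NAC045 in 1. Of the 37 rows that did not pass, 10 were listed at 0 in every library. A further 11 rows carry the NAM domain in the table's Pfam column but not the words of the rule, and 6 of them passed the filter. Among these, JUB1 (AT2G43000), a repressor of senescence, was at 3.06, 2.48 and 3.49 TPM in WT mock and at 21.41, 29.47 and 18.66 in bon123 mock.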

How the data were processed

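RNA sequencing libraries from 18 samples, 3 for each of 6 groups, were analysed from 1 deposited table of TPM values that the authors made, with 1 column per library. The header gives no unit, but each library sums to between 999989 and 999999. The build TAIR10 and the tools DESeq2 1.24.0, HISAT2 2.1.0 and RSEM 1.3.1 are listed, without roles, per the submitters' processing notes. TPM keeps no record of depth, so the depth is unknown, no counting interval is given, and precision rests on the spread between libraries. Nothing says that replicates came from separate cultures, so p-values measure the spread between these libraries, which may be technical.

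The 21727 genes that reached 1 TPM in 3 or more libraries were tested on log2(TPM + 1), a scale that understates changes of low genes. A means model over the 6 groups was fitted with limma 3.58.1 in R 4.3.3 (trend on, two-sided moderated tests, Benjamini-Hochberg adjustment over all genes of each of 11 comparisons, called at an adjusted p under 0.05). The fit was tested on simulated data. Same-numbered libraries of different groups did not consistently deviate together (correlations -0.244 to 0.263, 7 of 45 over 0.1). In 0 of 15 pairs of groups were all correlations over 0.1. With so few libraries per group this cannot exclude a pairing, and the main fit used none. No batch is named in the labels.

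Roles were assigned from general knowledge for 47 of the 67 members. Besides role members, genes named are, per comparison, the 5 largest rises and falls among called members with a mean log2(TPM + 1) of at least 2, and members at the edges of the filter. JUB1 and genes listed for their low levels were named after their values were seen. The members and lists were chosen with earlier results of these data known. Target sites and promoters were read from TAIR10.1 (RefSeq). The table's transcript length equalled an annotated spliced length for 99.4% of 27444 genes and for 67 of 67 members. Alternatives were 2 other scalings, another pseudocount, other filters, a replicate block, no variance trend, only the groups compared, and leaving out each library.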

Additional observations from a re-analysis of the deposited data

Results flagged for a closer look

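Each value below is the bon123 response minus the WT response on the log2 scale, for a gene named in the report whose responses differed between genotypes by the interaction test (limma, adjusted p under 0.05 over 21727 genes, n = 3 libraries per group).

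For mannitol, the dehydration genes had NAC019 at -3.04, RD26 at -2.81, ANAC102 at -1.98, NAC002 (ATAF1) at -1.87, NAC032 at -1.73, NAC081 (ATAF2) at -1.26 and NAC055 at -0.79. With median-of-ratios scaling NAC032 was at -1.14, NAC081 at -0.67 and NAC055 at -0.21, the last not called. Among senescence genes NAC92 (ORE1) was at -2.81, NAC047 at -2.51 and anac074 at 1.05. The membrane-tethered gene NAC053 was at -2.30, the lowest of 11 membrane-tethered members that were negative and called. ANAC027, with no role assigned, was at 0.91. In this set anac074 and ANAC027 alone were positive.

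For ABA, the dehydration genes had RD26 at -1.14, NAC055 at -1.09, NAC081 at -0.94, NAC019 at -0.82 and NAC032 at -0.46. With upper-quartile scaling all but NAC032 were called. With median-of-ratios scaling none of these 5 was called, 4 had negative values (-0.53 to -0.18) and NAC032 had the opposite sign. Senescence genes went both ways, with NAC029 (NAP) at -1.85, NAC047 at -1.68, NAC083 at 0.68 and anac074 at 2.12. NAC100 was at 2.20, anac099 at 1.59, NAC104 (XND1) at 0.87, NAC018 at -1.42, AT3G12977 at -1.49 and NAC68 at -1.75.

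Of the 8 green tissue markers, 7 had a negative interaction with ABA, and 2 a positive and 1 a negative one with mannitol. Of 7 root markers tested, 3 were positive and 3 negative for ABA, with PYK10 at -2.69, and 3 and 1 for mannitol. The seed storage gene tested, CRA1, was called in neither. Ribosomal RNA differed between libraries of the same groups (values in the report). The part of the markers and of ribosomal RNA in the differences above was not tested.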

How the results depend on the processing

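Over all 67 members and 11 comparisons, 492 values were called. Of these, 424 kept their call with median-of-ratios scaling, 449 with upper-quartile scaling and 469 with a pseudocount of 0.1. Those kept were 485 with no filter on low values, 491 with no variance trend and 455 with only the groups compared. All 406 values of genes that reached 5 TPM in 3 libraries kept theirs. Directions reversed with median-of-ratios scaling only, in 10 values, none of them called then: in bon123 after ABA NAC004 (0.16), anac048 (0.17) and NAC082 (0.011), in bon123 after mannitol NAC055 (0.026) and RD26 (0.076), between genotypes under mannitol NAC029 (0.006), in the interaction with ABA NAC032 (0.14), NAC053 (0.044) and NAC082 (0.17), and in that with mannitol NAC082 (0.027).

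Counts of members that moved by over 1.5 times were the following. With median-of-ratios scaling, 14 fell in bon123 after ABA in place of 26, 15 rose and 21 fell after mannitol in place of 7 and 34, 11 were lower between genotypes under mannitol in place of 19, interactions with ABA were positive in 21 and negative in 14 in place of 7 and 26, those with mannitol positive in 10 in place of 4, and 7 were lower in ABA against mannitol in WT in place of 11. With upper-quartile scaling 14 rose and 22 fell in bon123 after mannitol, and 8 interactions with mannitol were positive. With genes of at least 5 TPM in 3 libraries, which leaves fewer members, 4 rose in bon123 after mannitol, 3, 5 and 11 were lower between genotypes in mock, under ABA and under mannitol, and 8 were lower in ABA against mannitol in bon123. With only the groups compared, 5 fell in WT after mannitol. The cause of the shifts was not tested.

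Leaving out 1 library at a time kept 8602 of 8856 values called and reversed none. The members that fell in WT after mannitol then numbered 6 to 13 (6 without WT mock replicate 3 or WT mannitol replicate 3), those lower in bon123 mock 7 to 11 (7 without bon123 mock replicate 2), and those lower in ABA against mannitol in WT 6 to 15 (6 without WT ABA replicate 2 or WT mannitol replicate 1). Without bon123 ABA replicate 3, 30 rose and 20 fell in bon123 after ABA. With the replicate number as a block, 486 of 492 values kept their call, and the counts were 23 and 11 in WT after ABA, 26 and 26 in bon123 after ABA, 24 and 12 and 7 and 34 after mannitol in WT and bon123, 49 and 10 between genotypes in mock, 45 and 14 under ABA, 35 and 19 under mannitol, 9 and 25 and 4 and 40 in the interactions with ABA and mannitol, and 16 and 11 and 39 and 15 in ABA against mannitol in WT and bon123. The samples share only a number, and the block changed no count by over 1.5 times. Depth is unknown for TPM, so the low levels of the vessel genes cannot be given a counting error.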
